A study of Mus musculus with 6 samples.

Results

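The genes described are 10 regulators of the G1 phase of the cell cycle, taken by their symbols in the mouse annotation GENCODE M21 from the 24191 genes of the deposited table. They are the D-type cyclins Ccnd1, Ccnd2 and Ccnd3, the cyclin-dependent kinases Cdk4, Cdk6 and Cdk2, the inhibitors Cdkn2a, Cdkn2b and Cdkn1b, and the retinoblastoma gene Rb1. All 10 were found, and all 10 passed the filter on low values. The measurements come from J1 mouse embryonic stem cells, a male line, in 3 libraries with genotype Mettl5 -/- (Mettl5 KO) and 3 wild-type (WT) libraries. METTL5 is the enzyme that methylates an adenosine of 18S ribosomal RNA. Both genotypes were grown for 7 days with serum and LIF, and polyA RNA was sequenced. The sources used here do not give whether the knockout libraries come from 1 clone, or whether replicates were separate cultures, so each p-value reflects only how far these libraries scatter, and that scatter may be technical.

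D-type cyclins are made in response to growth signals. They bind CDK4 or CDK6, and the active kinases phosphorylate the RB protein, which otherwise holds E2F transcription factors inactive. Cyclin E with CDK2 completes that phosphorylation and starts S phase. The INK4 proteins, encoded by Cdkn2a and Cdkn2b, bind CDK4 and CDK6 and keep the D-type cyclins off them, while p27, the product of Cdkn1b, inhibits CDK2 complexes. Mouse embryonic stem cells are known for a short G1 phase, high CDK2 activity and low D-type cyclin protein.

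Depth, estimated from the spacing of low values, was 40440000 to 59640000 fragments in Mettl5 KO libraries and 38540000 to 52750000 in WT libraries. Mettl5 itself measured 3.65, 3.58 and 3.32 on the TPM scale in Mettl5 KO libraries and 50.3, 48.6 and 48.7 in WT libraries. All 10 markers of embryonic stem cells in the list used here averaged 1 or more on the TPM scale in both genotypes. By the rule given below, 8 of these markers were lower and 1 was higher in Mettl5 KO cells. Among all tested genes, 28.9% were lower and 33.6% higher. The median coefficient of variation between replicates, over all tested genes in scaled reads, was 7.46% in Mettl5 KO and 7.97% in WT libraries.

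Of the 10 regulators, 8 were higher and 1 was lower in Mettl5 KO cells (limma, Benjamini-Hochberg adjusted p under 0.05). Cdkn2b had the largest difference, then Rb1, Ccnd1 and Cdkn2a, which rose by more than 1 on the log2 scale. Cdk4, Cdk6 and Ccnd2 rose by less than 1, Cdkn1b fell, and Cdk2 did not pass the threshold. The 8th called rise, that of Ccnd3, depended on the scaling. Differences between genotypes were widespread: 62.6% of the 24183 tested genes passed the same rule, 33.6% were higher and 28.9% lower, and 11.4% were higher with a log2 fold change of at least 1, against 4 of the 10 regulators. The tested genes reach down to a mean of 1 scaled read, whereas the 10 regulators had 104.7 or more in every library. These shares are therefore not those of genes of like level. The median log2 fold change was 0.88 over the 10 genes and 0.00 over all tested genes. The 10 genes were chosen with earlier results of these data known, so these shares and medians do not test G1 regulators as a class. Scaled reads did not overlap between the genotypes in 9 of the 10 genes, 8 higher and 1 lower, and in 67.8% of all tested genes (35.8% higher and 32.1% lower). On the TPM scale they did not overlap in 8 of the 10, against 68.1% of all tested genes. With 3 libraries against 3, an exact two-sided permutation test of a single gene cannot go below p = 0.1. When libraries were rescaled to equal totals, the median of all genes moved to -0.15, and 6309 genes were higher and 9147 lower, in place of 8137 and 6998.

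**Figure D1:**
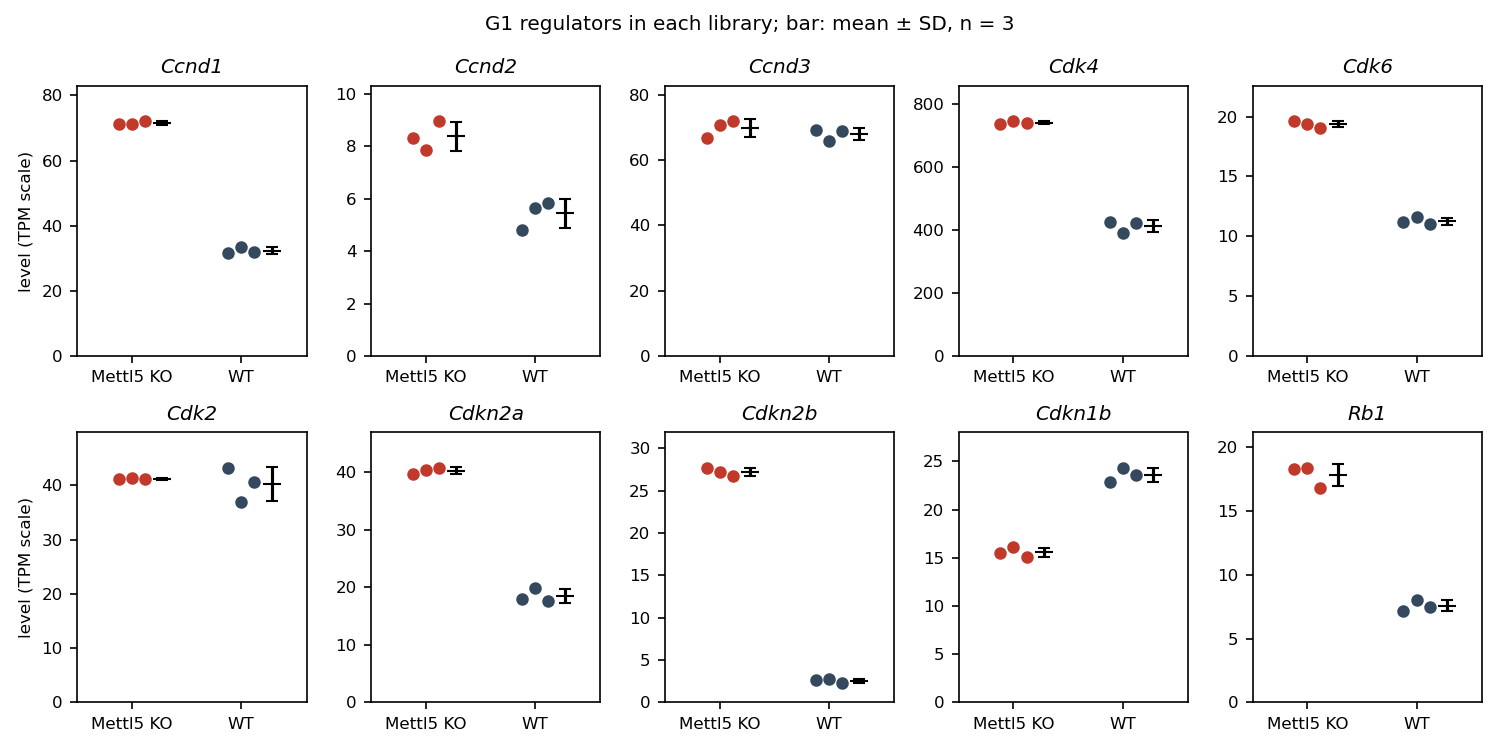
Level of each G1 regulator on the TPM scale (y axis, linear, from 0) in the 3 Mettl5 KO libraries (red, left) and the 3 WT libraries (dark blue, right), with the mean and SD beside the points. Cdkn2b is at 26.8 to 27.7 in Mettl5 KO libraries and at 2.31 to 2.78 in WT libraries, Cdkn1b is the gene with lower Mettl5 KO values, and the points of Ccnd3 and Cdk2 overlap.

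Ccnd1 (ENSMUSG00000070348) encodes cyclin D1 and lies on chromosome 7 of mm10, at 144929931 to 144939925 on the minus strand. It measured 71.3, 71.1 and 72.1 on the TPM scale in Mettl5 KO libraries, against 31.6, 33.4 and 31.9 in WT libraries. All Mettl5 KO libraries were above all WT libraries, and the spread within a genotype was small. Its log2 fold change on log2(scaled reads + 1) was 1.20 (SE 0.03, adjusted p 1.74e-09, limma), and it ranged from 1.04 to 1.22 over the 17 alternatives tried. The FGF genes that neighbour Ccnd1 differed in direction: Fgf4 and Fgf3 had log2 fold changes of -0.77 and -1.76 (adjusted p 2.83e-08 and 6.19e-06, limma), while Fgf15 rose by 0.82 (adjusted p 3.1e-05, limma). Within 500 kb of the start of Ccnd1, 3 of 10 tested protein-coding genes were higher and 3 were lower. Of all tested genes, 33.6% were higher and 28.9% lower.

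Ccnd2 (ENSMUSG00000000184) encodes cyclin D2 and lies on chromosome 6, at 127125162 to 127152193 on the minus strand. Its levels were the lowest of the D-type cyclins, at 8.30, 7.86 and 8.96 on the TPM scale in Mettl5 KO libraries and 4.82, 5.65 and 5.83 in WT libraries. The genotypes did not overlap. The log2 fold change was 0.69 (SE 0.0939, adjusted p 0.000144, limma). Genes on chromosome 6 had a median log2 fold change of -0.29 over 1180 tested genes, so Ccnd2 went against its chromosome. With values centred per chromosome its log2 fold change was 0.98 (adjusted p 1.57e-05, limma).

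Ccnd3 (ENSMUSG00000034165) encodes cyclin D3 and lies on chromosome 17, at 47505051 to 47599691 on the plus strand. It measured 66.7, 70.9 and 71.9 on the TPM scale in Mettl5 KO libraries and 69.1, 66.0 and 69.1 in WT libraries, and these ranges overlap. In scaled reads it was at 2805, 2986 and 3032 in Mettl5 KO libraries and at 2763, 2642 and 2793 in WT libraries, which do not overlap. The log2 fold change of 0.11 (SE 0.0389) passed the threshold narrowly (adjusted p 0.0395, limma). That call was lost with the TPM-scale column (0.04, adjusted p 0.414, limma), with values centred per chromosome (0.03, adjusted p 0.536, limma) and with equal totals, where the sign turned (-0.05, adjusted p 0.275, limma). It was also lost without Mettl5 KO replicate 2 or 3 or without WT replicate 1 or 2 (adjusted p 0.0626 to 0.145, limma). A change in Ccnd3 RNA was thus not larger than the uncertainty of the scaling.

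Summed over the 3 genes, D-type cyclin RNA was 149.7 ± 3.30 on the TPM scale in Mettl5 KO cells and 105.8 ± 0.917 in WT cells (SD, n = 3 each). Its make-up differed too. Ccnd1 made up 48.7%, 47.4% and 47.1% of the sum in Mettl5 KO libraries and 29.9%, 31.8% and 29.9% in WT libraries. Ccnd3 made up 45.6% to 47.3% in Mettl5 KO libraries and 62.8% to 65.5% in WT libraries. The share of Ccnd2 was 5.25% to 5.86% in Mettl5 KO libraries and 4.57% to 5.46% in WT libraries, which overlap. These shares are within a library and do not depend on how libraries are scaled. In Mettl5 KO cells Ccnd1 and Ccnd3 were at like levels, whereas Ccnd3 was the main D-type cyclin RNA in WT cells.

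**Figure D2:**
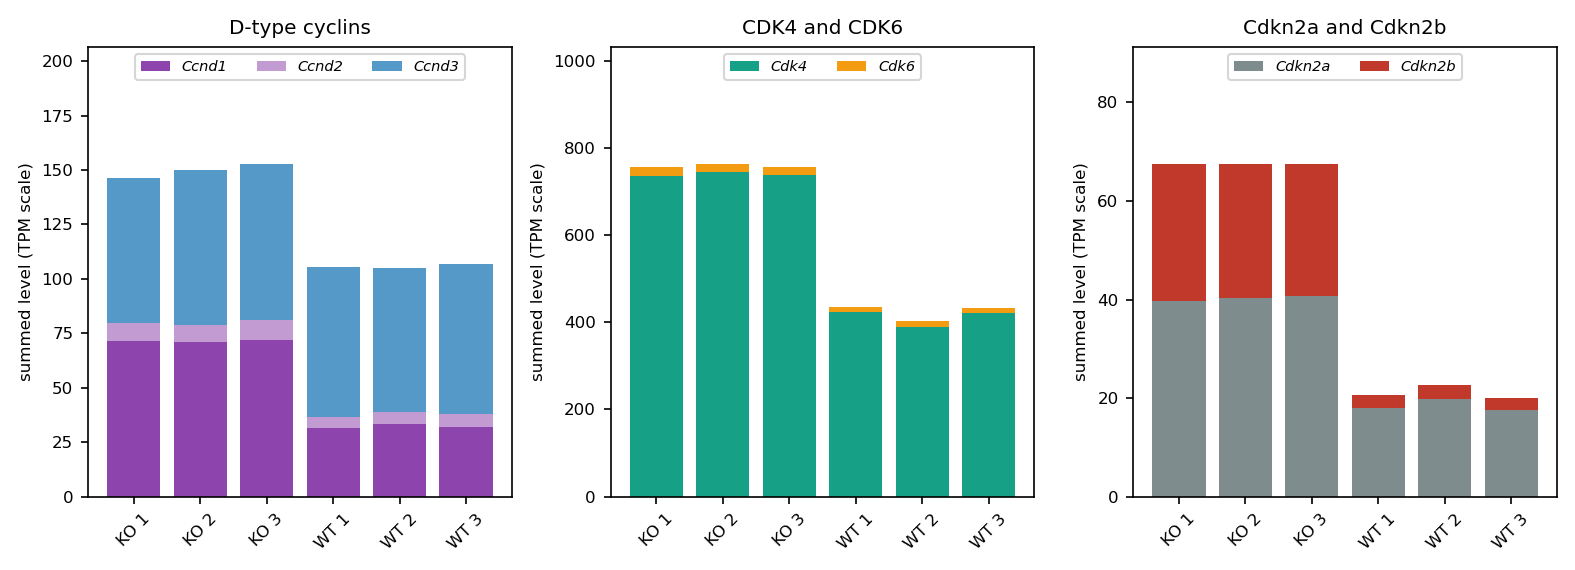
Summed level on the TPM scale (y axis, linear, from 0) of the D-type cyclins, of Cdk4 and Cdk6, and of Cdkn2a and Cdkn2b, with 1 stacked bar per library, Mettl5 KO libraries on the left and WT libraries on the right. Ccnd1 widens to 47.1% to 48.7% of the D-type cyclin bar in Mettl5 KO libraries, against 29.9% to 31.8% in WT libraries, and Cdkn2b to 39.6% to 41.1% of the bar of Cdkn2a and Cdkn2b, against 11.6% to 12.7%.

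Cdk4 (ENSMUSG00000006728) encodes the main kinase partner of the D-type cyclins here by RNA level. It lies on chromosome 10, at 127063534 to 127067920 on the plus strand, and overlaps Tspan31. It measured 736, 744 and 738 on the TPM scale in Mettl5 KO libraries, against 424, 390 and 421 in WT libraries. The groups were far apart relative to their spread. Cdk4 had a log2 fold change of 0.91 (SE 0.0341, adjusted p 2.32e-08, limma), and 0.76 with equal totals. Its level stood above that of 99.1% of tested genes in Mettl5 KO cells and of 98.7% in WT cells. Of 30 tested protein-coding genes starting within 500 kb of Cdk4, 9 were higher and 16 lower, against 33.6% and 28.9% of all tested genes. The 30 had a median log2 fold change of -0.16. Tspan31, the overlapping gene, rose by 0.24 (adjusted p 0.00161, limma).

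Promoter sequences were taken from the RefSeq table for GRCm38.p6, as the 250 bases before each start; 7 of the 10 genes matched it, with 9 promoters in all, and Ccnd1, Ccnd2 and Rb1 did not. Each was searched on both strands for the E-box CACGTG, to which MYC and related factors bind, the cAMP response element TGACGTCA, the GC box GGGCGG, the TATA box TATAAA, the E2F motif TTTCCCGC and the AP-1 motif TGACTCA. CDK4 is a known MYC target gene in human cells, and the mouse promoter is shown because it holds 4 E-boxes, at 172, 118, 98 and 11 bases before the start. An E-box occurs in 6.02% of the 32851 promoters of the table, and 4 or more occur in 7 of them (0.0213%). Capitals mark the 4 E-boxes and a GC box at 80 bases, which does not overlap them.
Cdk4 promoter (chr10:127063285-127063534, plus strand): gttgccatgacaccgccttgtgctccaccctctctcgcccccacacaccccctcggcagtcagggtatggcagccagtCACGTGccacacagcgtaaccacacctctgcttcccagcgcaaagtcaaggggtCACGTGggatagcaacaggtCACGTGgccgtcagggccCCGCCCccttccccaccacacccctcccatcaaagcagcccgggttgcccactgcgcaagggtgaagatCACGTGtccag

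Cdk6 (ENSMUSG00000040274) encodes the second kinase that D-type cyclins activate and lies on chromosome 5, at 3341485 to 3531008 on the plus strand. It measured 19.6, 19.4 and 19.1 on the TPM scale in Mettl5 KO libraries and 11.2, 11.6 and 11.0 in WT libraries, with no overlap. The log2 fold change was 0.84 (SE 0.0378, adjusted p 7.94e-08, limma), close to that of Cdk4. Cdk4 made up 97.4% to 97.5% of the summed Cdk4 and Cdk6 RNA in Mettl5 KO libraries, against 97.1% to 97.5% in WT libraries. That sum was 758.6 ± 4.52 on the TPM scale in Mettl5 KO cells and 423 ± 18.6 in WT cells (SD, n = 3 each).

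Cdk2 (ENSMUSG00000025358) encodes the partner of cyclins E and A. It lies on chromosome 10, at 128697939 to 128705031 on the minus strand, and overlaps Pmel, which had a log2 fold change of -0.72 (adjusted p 0.000105, limma). It measured 41.2, 41.5 and 41.1 on the TPM scale in Mettl5 KO libraries and 43.3, 36.9 and 40.7 in WT libraries. The Mettl5 KO values lay within the WT range. Its log2 fold change of 0.09 (SE 0.0501) missed the threshold (adjusted p 0.155, limma), and its sign turned with equal totals (-0.07, adjusted p 0.279, limma) and with chromosome centring (-0.02, adjusted p 0.727, limma). It passed only when WT replicate 1, the highest WT library, was left out (0.14, adjusted p 0.0214, limma). Cdk2 was thus the kinase of the 3 for which no difference could be shown.

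**Figure D3:**
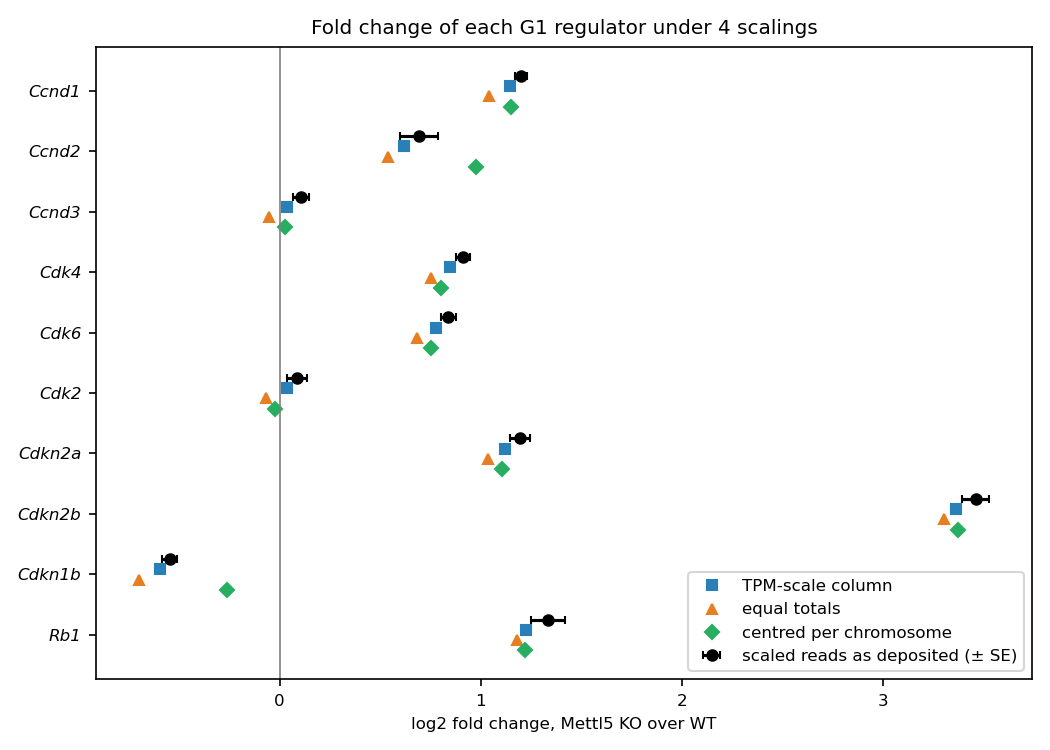
Log2 fold change, Mettl5 KO over WT (x axis), of the 10 G1 regulators from the scaled reads as deposited (black, with SE) and under 3 other scalings. The points of Ccnd3 and Cdk2 lie on either side of 0, those of Cdkn1b run from -0.70 with equal totals to -0.26 with chromosome centring, and those of Cdkn2b stay between 3.31 and 3.46.

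Cdkn2b (ENSMUSG00000073802) encodes p15, an INK4 inhibitor known as a target of TGF-beta signalling in human epithelial cells. It lies on chromosome 4, at 89306299 to 89311039 on the minus strand, and has a single annotated transcript. It measured 27.7, 27.2 and 26.8 on the TPM scale in Mettl5 KO libraries, against 2.61, 2.78 and 2.31 in WT libraries. In scaled reads it was at 2049, 2008 and 1978 in Mettl5 KO libraries and at 185, 197 and 164 in WT libraries. The genotypes were separated by much more than their spread, and the ratio of the mean TPM-scale levels was 10.6. Its log2 fold change was 3.46 (SE 0.0678, adjusted p 4.13e-10, limma) and stayed between 3.31 and 3.52 under all 17 alternatives. Of all tested genes, 98.6% had a smaller absolute fold change. Its level stood above that of 81.2% of tested genes in Mettl5 KO cells and of 49.9% in WT cells.

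Cdkn2a (ENSMUSG00000044303) has alternative first exons, from which the INK4 protein p16 and the unrelated protein ARF, an activator of p53, are made. It lies 16.4 kb from Cdkn2b by gene starts, on chromosome 4 at 89274471 to 89294653 on the minus strand. Its level was 39.7, 40.4 and 40.8 on the TPM scale in Mettl5 KO libraries and 18.0, 19.8 and 17.6 in WT libraries, with no overlap. The log2 fold change was 1.19 (SE 0.0487, adjusted p 4.03e-08, limma). The table gives 1 value per gene, so the products of the 2 annotated transcripts cannot be told apart. Cdkn2a thus rose, but by less than Cdkn2b, and Cdkn2b made up 41.1%, 40.2% and 39.6% of their summed RNA in Mettl5 KO libraries, against 12.7%, 12.3% and 11.6% in WT libraries. The sum was 67.5 ± 0.0987 on the TPM scale in Mettl5 KO cells and 21.0 ± 1.39 in WT cells (SD, n = 3 each).

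The promoters of this locus are shown because both genes rose and because they differ in sequence. The upstream Cdkn2a promoter, which serves ARF, holds 40 CpG pairs in 250 bases, more than 98.7% of promoters in the table. The downstream Cdkn2a promoter, which serves p16, holds 7, the Cdkn2b promoter holds 12, and the median of the table is 6. Capitals mark an E2F motif at 99 bases and GC boxes at 48 and 14 bases before the start in the ARF promoter, and a cAMP response element at 46 bases in the Cdkn2b promoter; none of these overlap. Of all promoters in the table, 0.895% hold the E2F motif, 32.7% the GC box and 1.55% the cAMP response element. The p16 promoter held none of the 6 motifs in this window. In GENCODE M21 the longer Cdkn2a transcript begins at 89294653, inside the ARF window. The GC box at 14 bases thus lies within that transcript.
Cdkn2b promoter (chr4:89311033-89311282, minus strand): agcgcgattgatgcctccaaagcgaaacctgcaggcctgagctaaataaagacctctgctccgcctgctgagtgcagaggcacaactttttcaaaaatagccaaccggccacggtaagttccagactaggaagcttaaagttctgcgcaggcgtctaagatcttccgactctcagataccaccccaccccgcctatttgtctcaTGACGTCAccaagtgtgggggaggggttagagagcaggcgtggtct
Cdkn2a promoter of ARF (chr4:89294620-89294869, minus strand): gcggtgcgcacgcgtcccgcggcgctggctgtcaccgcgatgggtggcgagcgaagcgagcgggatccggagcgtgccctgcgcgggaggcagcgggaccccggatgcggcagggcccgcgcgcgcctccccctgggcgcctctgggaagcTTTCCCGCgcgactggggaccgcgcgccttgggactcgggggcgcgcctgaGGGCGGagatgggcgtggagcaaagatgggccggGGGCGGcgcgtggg
Cdkn2a promoter of p16 (chr4:89282193-89282442, minus strand): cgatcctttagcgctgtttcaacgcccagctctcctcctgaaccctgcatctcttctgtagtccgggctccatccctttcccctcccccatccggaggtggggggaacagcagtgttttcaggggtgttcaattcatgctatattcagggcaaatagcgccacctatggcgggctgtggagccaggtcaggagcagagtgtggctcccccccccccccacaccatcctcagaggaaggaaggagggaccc

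The other tested protein-coding genes that start within 500 kb of Cdkn2b were Mtap and Dmrta1. Mtap, an enzyme of methionine salvage, was at 44.5 ± 1.17 on the TPM scale in Mettl5 KO cells and 29.2 ± 0.189 in WT cells (SD, n = 3 each; log2 fold change 0.66, adjusted p 8.12e-08, limma). Dmrta1 rose by 1.26 (adjusted p 0.00247, limma) at a level of 0.272 ± 0.0436 in Mettl5 KO cells and 0.115 ± 0.0325 in WT cells. All of these neighbours rose by less than Cdkn2b. Genes of chromosome 4 had a median log2 fold change of 0.07.

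Markers of fibroblasts, cells in which both Cdkn2a and Cdkn2b are known to be expressed in culture, were higher in the same libraries. Of 16, 14 were higher and 2 lower. Among all tested genes, 33.6% were higher and 28.9% lower, and the other marker counts below stand against the same shares. The summed level of the 16 was 49.9 to 50.6 on the TPM scale in Mettl5 KO libraries and 24.1 to 26.9 in WT libraries. Col1a1 had the highest level of the list in Mettl5 KO libraries, at 17.2 to 18.0, against 0.491 to 1.06 in WT libraries. Thy1 had the highest in WT libraries, at 12.1 to 14.6, against 5.20 to 6.82 in Mettl5 KO libraries. The 2 lower markers were Thy1 and Pdgfra, with log2 fold changes of -1.07 and -1.02 (adjusted p 4.43e-05 and 8.59e-05, limma). No marker of the list was at 0 in all libraries of a genotype, but some were near 0. Lum and Postn were at 0.114 ± 0.0218 and 0.63 ± 0.0696 in Mettl5 KO cells, against 0.0145 ± 0.0197 and 0.022 ± 0.012 in WT cells (SD, n = 3 each). Lum was listed at 0 in WT replicate 3. Trophectoderm markers had 7 of 8 higher and none lower, with a summed level of 1527 to 1585 in Mettl5 KO libraries and 65.2 to 66.6 in WT libraries. Most of that sum was the keratin genes Krt8 and Krt18, at 782 ± 10.9 and 736.5 ± 19.1 in Mettl5 KO cells, against 29.4 ± 0.495 and 20.9 ± 0.502 in WT cells (SD, n = 3 each). The other 6 markers summed to 33.0 to 33.6 in Mettl5 KO libraries and 14.9 to 16.4 in WT libraries. Markers of primitive streak and mesoderm had 6 of 8 higher and 1 lower, with sums of 67.5 to 74.6 in Mettl5 KO and 3.30 to 3.88 in WT libraries. Without T (brachyury) these sums were 7.99 to 8.77 in Mettl5 KO and 2.33 to 2.49 in WT libraries. Endoderm markers had 4 of 5 lower, with sums of 11.4 to 12.2 in Mettl5 KO and 28.2 to 30.0 in WT libraries. Of the 10 stem cell markers 8 were lower and 1 higher, with sums of 4957 to 5399 in Mettl5 KO and 5465 to 5861 in WT libraries. The part of such differences in the levels of the G1 regulators was not tested, and in bulk RNA a change in the mix of cells and a change in RNA per cell cannot be told apart.

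Cdkn1b (ENSMUSG00000003031) encodes p27, an inhibitor of CDK2 complexes. It lies on chromosome 6, at 134920401 to 134925513 on the plus strand. It measured 15.5, 16.1 and 15.1 on the TPM scale in Mettl5 KO libraries and 22.8, 24.3 and 23.6 in WT libraries. All Mettl5 KO libraries were below all WT libraries. Its log2 fold change was -0.55 (SE 0.0374, adjusted p 1.32e-06, limma), which became -0.26 with values centred per chromosome (adjusted p 0.000312, limma), as genes on chromosome 6 had a median of -0.29. Of 14 tested protein-coding genes starting within 500 kb of it, 12 were lower and 2 higher, against 28.9% and 33.6% of all tested genes. The 14 had a median log2 fold change of -0.79. The exceptions were Gprc5a and Emp1, which rose by 2.62 and 1.62 (adjusted p 4.81e-10 and 4.78e-10, limma). Relative to Cdk2, Cdkn1b RNA was at 0.378, 0.388 and 0.368 in Mettl5 KO libraries and 0.528, 0.659 and 0.58 in WT libraries, as a ratio of TPM-scale levels.

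Rb1 (ENSMUSG00000022105) encodes the protein that CDK4, CDK6 and CDK2 phosphorylate. It lies on chromosome 14, at 73183673 to 73325822 on the minus strand. It measured 18.3, 18.4 and 16.8 on the TPM scale in Mettl5 KO libraries and 7.20, 8.04 and 7.46 in WT libraries, with no overlap. The log2 fold change was 1.33 (SE 0.0849, adjusted p 7.95e-07, limma). In scaled reads Rb1 was at 287, 293 and 269 in Mettl5 KO libraries and at 105, 117 and 113 in WT libraries. It had 14.8 scaled reads per unit of the TPM scale in WT cells, the smallest of the 10 genes, against 37.4 to 129 in the others. Of its 6 annotated transcripts 1 is protein coding, and the table does not separate them. Lpar6 lies within Rb1 and Rcbtb2 overlaps it, so reads may be shared between them. Lpar6 and Rcbtb2 rose by 1.80 and 1.41 (adjusted p 1.38e-09 and 1.58e-08, limma). Of 8 tested protein-coding genes starting within 500 kb of Rb1, 7 were higher and none lower, against 33.6% and 28.9% of all tested genes. The 8 had a median log2 fold change of 0.95, while chromosome 14 had a median of 0.09.

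**Figure D4:**
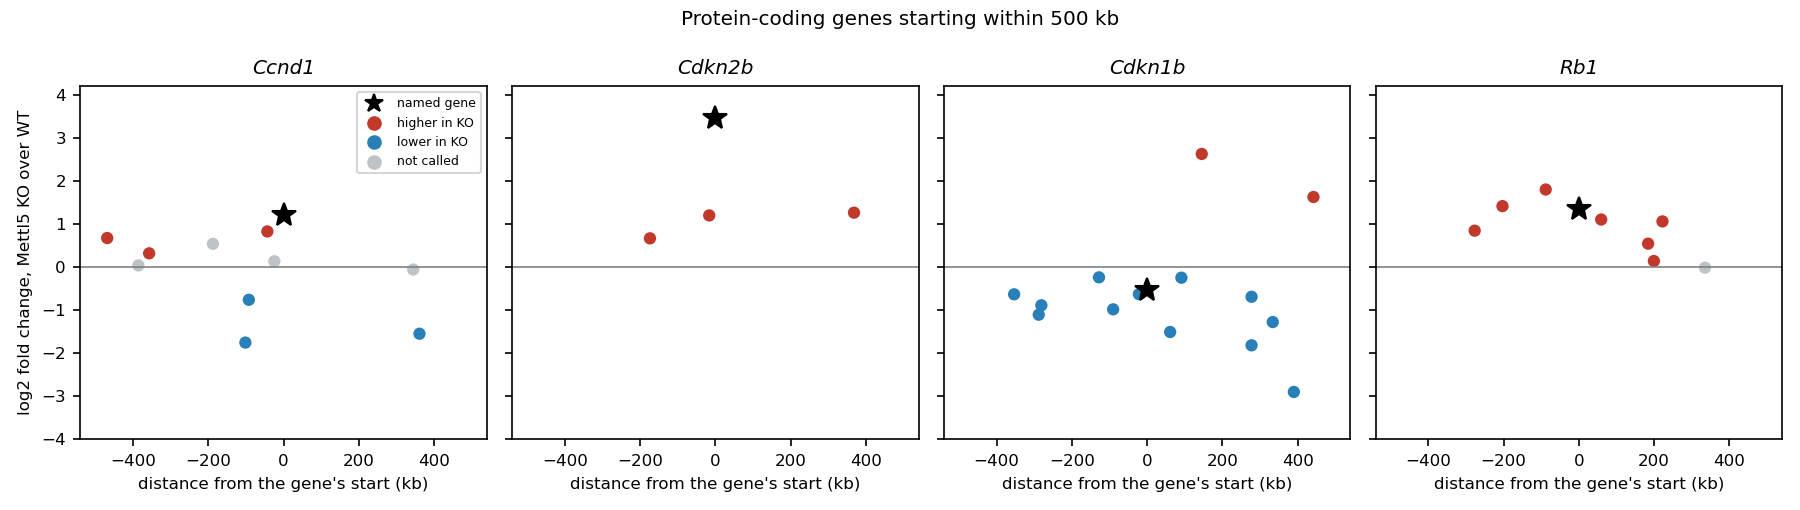
Log2 fold change, Mettl5 KO over WT (y axis), of the tested protein-coding genes that start within 500 kb of Ccnd1, Cdkn2b, Cdkn1b or Rb1, against the distance of their start from that gene's start in kb (x axis, along the plus strand). The star is the named gene. Around Cdkn1b 12 of 14 genes are lower, around Rb1 7 of 8 are higher, and around Ccnd1 the genes go both ways. Of all tested genes, 33.6% are higher and 28.9% lower.

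On the TPM scale, which is per length, Cdk4 had the highest level of the 10 genes in both genotypes. In Mettl5 KO cells Ccnd1 and Ccnd3 followed with overlapping ranges, at 71.5 ± 0.522 and 69.8 ± 2.74, then Cdk2 at 41.2 ± 0.188, Cdkn2a at 40.3 ± 0.561, Cdkn2b at 27.2 ± 0.468, Cdk6 at 19.4 ± 0.269, Rb1 at 17.8 ± 0.875, Cdkn1b at 15.6 ± 0.483 and Ccnd2 at 8.37 ± 0.55 (SD, n = 3 each). In WT cells the order below Cdk4 was Ccnd3 at 68.1 ± 1.81, Cdk2 at 40.3 ± 3.19, Ccnd1 at 32.3 ± 0.967, Cdkn1b at 23.6 ± 0.757, Cdkn2a at 18.5 ± 1.19, Cdk6 at 11.3 ± 0.291, Rb1 at 7.57 ± 0.435, Ccnd2 at 5.43 ± 0.54 and Cdkn2b at 2.57 ± 0.239 (SD, n = 3 each). Apart from Ccnd1 and Ccnd3 in Mettl5 KO cells, the ranges of neighbours in these orders did not overlap. Cdkn2b ranked 6th in Mettl5 KO cells and last in WT cells, and Cdkn1b ranked 9th in Mettl5 KO cells and 5th in WT cells. Cdkn2b RNA was 0.0354 to 0.0367 of the summed RNA of Cdk4 and Cdk6 in Mettl5 KO libraries and 0.00534 to 0.00692 in WT libraries. No such ratio is given for Cdkn2a, whose p16 and ARF transcripts share 1 value. The summed D-type cyclins were 0.194 to 0.202 of the same kinases in Mettl5 KO libraries and 0.242 to 0.262 in WT libraries. Relative to these kinases, Cdkn2b RNA was thus higher and D-type cyclin RNA lower in Mettl5 KO cells, with no overlap between the genotypes.

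Other cyclins, kinases, inhibitors and pocket proteins of G1 and S phase had 11 of 20 higher and 5 lower, with a median log2 fold change of 0.17. Among all tested genes, 33.6% were higher and 28.9% lower. Cdkn1a, the p53 target that encodes the CDK inhibitor p21, was at 59.8 ± 1.71 on the TPM scale in Mettl5 KO cells and 22.8 ± 1.14 in WT cells (SD, n = 3 each; log2 fold change 1.46, adjusted p 4.43e-09, limma). Cks1b, a kinase adaptor needed for the destruction of p27, and Cdk7, the kinase that activates other CDKs, rose by 0.65 and 0.50 (adjusted p 7.3e-08 and 3.33e-07, limma). Ccna1, the germline cyclin A, had a log2 fold change of -2.09 (adjusted p 1.87e-06, limma) at 0.404 ± 0.0515 in Mettl5 KO cells and 1.84 ± 0.0473 in WT cells. With equal totals 7 of the 20 were higher and 8 lower, so the direction of this list depended on the scaling.

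E2F and DP factors, the partners and targets of RB, had 5 of 10 higher and 5 lower (median log2 fold change 0.10). The shares over all tested genes were 33.6% higher and 28.9% lower. The activator gene E2f2 fell to 3.73 ± 0.323 on the TPM scale in Mettl5 KO cells, against 9.55 ± 0.154 in WT cells (SD, n = 3 each; log2 fold change -1.31, adjusted p 9.76e-08, limma). E2f6 and E2f8, which encode repressors, rose by 0.75 and 0.53 (adjusted p 1.26e-07 and 3.51e-07, limma). Neither class moved as a whole. Of the other activator genes E2f1 had a log2 fold change of -0.35 and E2f3 rose by 0.44 (adjusted p 5.69e-05 and 9.69e-06, limma). Of the other repressor genes E2f4 had -0.37 (adjusted p 1.26e-05, limma), while E2f5 and E2f7 rose by 0.31 and 0.52 (adjusted p 2.79e-05 and 0.000102, limma). The DP genes Tfdp1 and Tfdp2 had -0.11 and -0.13 (adjusted p 0.00352 and 0.00386, limma). With values centred per chromosome E2f4 lost its call (-0.01, adjusted p 0.903, limma) and the sign of Tfdp1 turned (0.25, adjusted p 2.85e-05, limma). Both are on chromosome 8, where the median was -0.38. With that centring the repressor genes E2f5, E2f6, E2f7 and E2f8 stayed higher. E2F target genes of DNA replication and nucleotide supply had 11 of 28 higher and 14 lower (median -0.07), and 2 were higher with equal totals. The counts of 11 and 14 stand against 33.6% higher and 28.9% lower among all tested genes. The helicase genes Mcm5 and Mcm2 had log2 fold changes of -0.60 and -0.46 (adjusted p 1.42e-07 and 3.63e-07, limma), and the transcription factor gene Mybl2 and the replisome gene Gins2 had -0.50 and -0.64 (adjusted p 1.54e-07 and 3.01e-06, limma). Mcm5 and Gins2 are on chromosome 8 and Mcm2 on chromosome 6, where median log2 fold changes were -0.38 and -0.29. Tyms, which makes thymidylate, rose by 0.51 (adjusted p 3.79e-06, limma).

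Ubiquitin ligase subunits and deubiquitinases that act on G1 regulators had 9 of 20 higher and 4 lower (median log2 fold change 0.05). Among all tested genes, 33.6% were higher and 28.9% lower. With equal totals 9 of the 20 were lower. The 4 genes of the list known as receptors of D-type cyclins did not move together. Fbxo4 was at 4.40 ± 0.264 on the TPM scale in Mettl5 KO cells and 1.03 ± 0.163 in WT cells (SD, n = 3 each; log2 fold change 2.15, adjusted p 2.19e-06, limma). Fbxo31 was at 7.72 ± 0.0544 in Mettl5 KO cells and 17.6 ± 0.464 in WT cells (SD, n = 3 each; log2 fold change -1.12, adjusted p 6.22e-08, limma). Fbxo31 is on chromosome 8, where the median was -0.38. With values centred per chromosome its log2 fold change was -0.76 (adjusted p 1.01e-06, limma). Ambra1 rose by 0.26 (adjusted p 0.000185, limma), and Fbxw8 had a log2 fold change of 0.03 and did not pass (adjusted p 0.497, limma). With equal totals Fbxw8 was lower (-0.13, adjusted p 0.00703, limma). Cul4b, a cullin scaffold, and Fbxw7, the receptor for cyclin E, rose by 0.73 and 0.77 (adjusted p 3.82e-08 and 9.28e-08, limma).

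Polycomb and other regulators known to act on the Cdkn2a and Cdkn2b locus had 11 of 23 higher and 8 lower, with a median log2 fold change of 0.12. The shares over all tested genes were 33.6% higher and 28.9% lower. Ets1, an activator of p16 transcription in human fibroblasts, was at 9.46 ± 0.366 on the TPM scale in Mettl5 KO cells and 0.825 ± 0.107 in WT cells (SD, n = 3 each; log2 fold change 3.56, adjusted p 2.68e-09, limma). Id1, which opposes ETS factors at p16 in human cells, rose by 1.43, and Phc2, a subunit of Polycomb repressive complex 1, rose by 1.27 (adjusted p 1.27e-08 and 8.27e-09, limma). Its paralogue Phc1, at a higher level than Phc2 in both genotypes, went the other way. Phc1 was at 121.6 ± 4.6 on the TPM scale in Mettl5 KO cells and 237.1 ± 9.7 in WT cells (SD, n = 3 each). Its log2 fold change was -0.91 (adjusted p 3.56e-08, limma), on chromosome 6, where the median was -0.29. Ezh1, a histone H3 methyltransferase of Polycomb repressive complex 2, had a log2 fold change of -1.40 (adjusted p 1.4e-08, limma). It is on chromosome 11, where the median was -0.41.

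**Figure D5:**
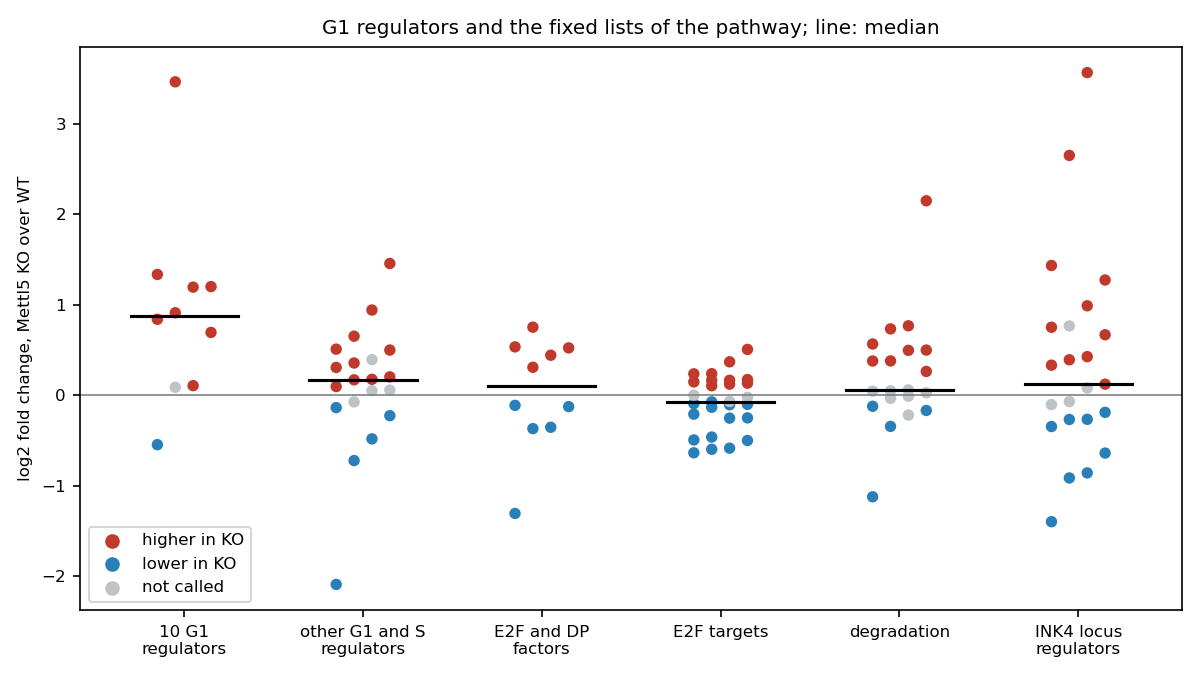
Log2 fold change, Mettl5 KO over WT (y axis), of each gene in the set of 10 G1 regulators and in the 5 other lists of the pathway, coloured by whether it was called higher, lower or neither, with a line at the median of each list. The medians are 0.88 for the 10 regulators and between -0.07 and 0.17 for the other lists. The 10 genes and all lists were chosen with earlier results of these data known.

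Among the 101 tested genes of those 5 lists, likeness to a regulator was taken as the root mean square difference of log2(scaled reads + 1) over the 6 libraries, with each gene set to its WT mean. Ets1 (0.20) and Tbx2 (0.65) were nearest to Cdkn2b, Phc2 (0.08) and Id1 (0.09) to Rb1, and Phc2 (0.06) and Ets2 (0.16) to Ccnd1. With 2 groups of libraries this measure mainly ranks genes by the size of their fold change.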

How the data were processed

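PolyA RNA of 3 Mettl5 KO and 3 WT libraries was analysed, with genotype and replicate number from the sample titles. The submitters' processing notes name kallisto, sleuth and the build mm10. Their versions, the annotation of transcripts and any use of strand are not named in any source used here. The deposited table gives 2 signal columns, 1 value per gene and library, named scaled reads per base and TPM per the file headers. The deposited scaled reads are not counts: between 0.5 and 40, 29.7% to 32.8% of them were whole multiples (tolerance 0.02) of a library's own step, against a median of 3.31% to 3.52% over the other steps tried. Depth was taken as the total divided by that step. This is a rough figure, because most values were not whole multiples of the step. The deposited TPM signal summed to 1019930 to 1022473 in Mettl5 KO and 969838 to 978167 in WT libraries, hence the name TPM scale. Small fold changes can differ between the columns, whose scaling is unlike.

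Values of log2(scaled reads + 1) for 24183 genes, those whose mean reached 1, were fitted in limma 3.58.1 under R 4.3.3 with the trend option, and with Benjamini-Hochberg adjustment over all of them. Adding 1 understates changes of low genes. The fit was checked on simulated data with the same spread for all genes and few changed genes. That check does not cover the unequal spread and widespread differences of the real data. Tables and plots used Python 3.11.15, pandas 2.3.3, numpy 2.4.6 and matplotlib 3.10.9. GENCODE M21 (GRCm38, the assembly called mm10) named 23846 of the 24191 identifiers. The 10 genes and all lists were chosen with earlier results of these data known. Genes named from a list are the 3 called members with the smallest p and the called member with the largest fold change in each direction. Markers of other cell types, neighbouring genes and genes nearest in pattern are named beside the results they touch. Neighbours, further E2F and DP factors, further cyclin D receptors, Phc1, Col1a1, Thy1 and Pdgfra were chosen after their values were seen. Alternatives were the TPM-scale column, 3 rescalings, filters, pseudocounts, variance models, a replicate block and leaving out each library.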

Additional observations from a re-analysis of the deposited data

How the results depend on the processing

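Over 17 alternatives, 7 or 8 of the 10 regulators were higher and 1 was lower, and leaving out each library in turn gave 7 to 8 higher and 1 lower. For all tested genes those leave-outs gave 7537 to 7946 higher and 6371 to 6638 lower, and the share of Ccnd1 in D-type cyclin RNA differed by 16.7 to 17.8 percentage points, against 17.2. Ccnd1, Ccnd2, Cdk4, Cdk6, Cdkn2a, Cdkn2b, Cdkn1b and Rb1 kept their direction and call in all 17. Ccnd3 lost its call in 9, including median-of-ratios size factors (0.08, adjusted p 0.083, limma) and limma without a trend (adjusted p 0.128, limma). Ccnd3 with equal totals, and Cdk2 with equal totals and chromosome centring, changed sign (-0.051, -0.068 and -0.022). With equal totals, the other G1 and S phase regulators had 7 higher and 8 lower, E2F targets 2 higher and the degradation genes 9 lower, since that rescaling lowers every fold change by a like amount. Centred per chromosome, 3 E2F and DP factors were lower, 6 E2F targets higher and 2 degradation genes lower; the cause was not tested.

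Same-numbered Mettl5 KO and WT libraries had correlations of 0.113, 0.079 and 0.132 between their deviations from the group means, over 13447 genes. Every library correlated best with its own number, a hint from the data and not from the design, and 1 pair was under 0.1, so the numbers were not taken to pair the samples. With the replicate block 8 regulators were higher and 1 lower, and 8183 tested genes were higher and 6927 lower. Differences as small as those of Ccnd3 and Cdk2 lie within the uncertainty of the scaling. Fold changes of genes near 0, such as Lum with 0.0 to 4.9 scaled reads in WT libraries, are the least certain at this depth.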
